A study of Mus musculus with 24 samples.

Results

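The genes described are 5 Ceacam genes of mouse chromosome 7 (Ceacam1, Ceacam2, Ceacam10, Ceacam18 and Ceacam20) and Cd177, which lies next to Ceacam10. They are 6 of the 45513 genes counted, found by matching the gene identifiers of the count files to GRCm38 symbols, and all 6 were matched and passed the filter on low counts in every comparison. They were listed by name with results of these data already in view. Their genotype difference in small intestine (SI) and its difference between the tissues are therefore treated as the measured values they were chosen by, and both are given as a description, without a p-value.

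RNA was sequenced in 24 libraries of sorted intestinal epithelial cells, 6 in each of 4 groups, the SI and the colon of WT and of 9S/T-A mice, the latter also called mutant, with libraries numbered 2 to 7 in each group. The design note of the series counts 6 mice in all, while the numbers 2 to 7 occur in both genotypes, so n = 6 below counts libraries. If a mouse gave more than 1 library of a group, the SDs, SEs and p-values below are too small. WT mice were Atoh1(WT)CreERT2 R26RtdTom and 9S/T-A mice were Atoh1(9S/T-A)CreERT2 R26RtdTom, in which serine or threonine sites of the transcription factor Atoh1 are replaced by alanine. Both lines were homozygous for a CreERT2 knocked in behind the Atoh1 coding sequence and heterozygous for a tdTomato reporter at Rosa26, on a C57BL/6 background, each derived from edited embryonic stem cell clones, so that the controls also carry the CreERT2 and the reporter. Males and females 8 to 16 weeks old received 3 mg of tamoxifen, and 24 hours later EpCAM+ tdTom+ live cells were sorted from the crypt-enriched fractions of the proximal 15 cm of SI and of the colon. The reporter marks cells in which Atoh1 drives CreERT2, which in this model are secretory cells.

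CEACAM proteins are glycoproteins of the immunoglobulin superfamily that sit at the surface of epithelial and blood cells or are secreted, and many bind each other between neighbouring cells. CEACAM1 spans the membrane and can recruit the phosphatases SHP-1 and SHP-2 through its cytoplasmic tail, and CEACAM2 is its closest relative in the mouse. CEACAM10 lacks a membrane anchor and is secreted, and CEACAM20 is found on the microvilli of intestinal epithelial cells, where the phosphatase SAP-1 (encoded by Ptprh) acts on it. CD177 belongs to another family, the Ly6/uPAR proteins, is tethered by a lipid anchor and is best known from the surface of neutrophils, where it binds PECAM1 and displays proteinase 3.

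In the GRCm38 coordinates of the count files, Ceacam20 (ENSMUSG00000070777) spans chr7:19965412-19991113 on the plus strand. Cd177 (ENSMUSG00000052212) spans chr7:24743985-24760311 on the minus strand, and Ceacam10 (ENSMUSG00000054169) follows it at chr7:24777204-24784649 on the plus strand, so that the pair is transcribed in opposite directions from starts 16.9 kb apart. Ceacam1 (ENSMUSG00000074272, chr7:25461702-25477625, minus strand) lies a further 677 kb away, and Ceacam2 (ENSMUSG00000054385, chr7:25516042-25540004, minus strand) begins 38.4 kb beyond Ceacam1. Ceacam18 (ENSMUSG00000030472) spans chr7:43634739-43649287 on the plus strand.

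The bases upstream of Ceacam10 and Ceacam1 are shown because they are nearly the same over 230 bases, although the levels of the genes differed between groups in unlike amounts. Both come from RefSeq (build GRCm38.p6), are written 5′ to 3′ along the gene and end within the 250 bases before the gene's start, and the 11 capitals in each mark the bases at which they differ.
Ceacam10, chr7:24776954-24777183, plus strand: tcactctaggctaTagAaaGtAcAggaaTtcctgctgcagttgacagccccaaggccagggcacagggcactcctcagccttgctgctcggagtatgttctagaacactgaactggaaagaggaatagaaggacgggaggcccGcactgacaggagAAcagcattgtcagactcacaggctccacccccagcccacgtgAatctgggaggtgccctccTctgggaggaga
Ceacam1, chr7:25477627-25477856, minus strand: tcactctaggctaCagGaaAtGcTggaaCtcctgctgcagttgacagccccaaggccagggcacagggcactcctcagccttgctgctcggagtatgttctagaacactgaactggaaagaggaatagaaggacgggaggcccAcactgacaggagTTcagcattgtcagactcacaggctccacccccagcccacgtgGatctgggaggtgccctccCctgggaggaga
The 2 aligned without a gap, with 219 of 230 positions identical (95.2%). The best local alignment of Ceacam1 with Ceacam2 covered 120 columns at 86.7% identity, and that of Ceacam2 with Ceacam10 covered 101 columns at 84.2%.

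The window of Cd177 is shown beside them because Cd177 is the neighbour whose level had the most similar pattern to that of Ceacam10 among the 6 genes.
Cd177, chr7:24760312-24760561, minus strand: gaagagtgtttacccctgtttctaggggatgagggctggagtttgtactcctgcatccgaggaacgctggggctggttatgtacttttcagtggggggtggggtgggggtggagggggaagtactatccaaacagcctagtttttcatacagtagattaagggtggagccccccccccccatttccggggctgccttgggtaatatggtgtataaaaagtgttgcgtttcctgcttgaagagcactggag
The letters CAGCTG, the core that Atoh1 and many other basic helix-loop-helix factors bind, were searched on both strands of the 250 bases before each of the 6 starts. They occurred once, before Ceacam20, against 13.0% of 32851 RefSeq promoter windows of the same length. The looser pattern CANNTG, which includes CAGCTG, was found 2 times each before Ceacam1 and Ceacam10 and once before Ceacam20, where it overlaps the CAGCTG, and 66.2% of all windows held it. A match of letters is a description and not a binding site.

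Before the levels are compared, the reads that these genes can share must be considered, since reads were 50 bases long and only primary alignments were counted. Of the 50-base windows in annotated transcripts of Ceacam2, 46.7% occurred also in transcripts of Ceacam1, so the split of counts between them is uncertain. Of the windows of Ceacam10, 3.0% occurred in another gene, in each case Ceacam1. Ceacam18 shared none of its windows with any other gene and Ceacam20 1.82%. For Cd177 the share was 5.51%, with windows in common with BC049730 and Gm4763. The rest of the genome outside transcripts was not searched.

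Total counts ranged from 36.0 to 65.8 M per library. In all 4 groups the library numbered 7 correlated least with the mean of the others, at r of 0.9864 to 0.9905 over genes, and results that rest on these libraries are given with and without them. Atoh1 itself was 92.3 ± 15.5 CPM (counts per M, the prefix mega, of a library total scaled by TMM; mean ± SD, n = 6) in WT SI, 75.0 ± 11.0 in mutant SI, 103 ± 15.7 in WT colon and 85.9 ± 13.6 in mutant colon. The sorted cells carried goblet markers at a summed 315000 to 508000 CPM in SI and 36000 to 82300 CPM in colon, and Paneth markers at 36800 to 74000 CPM in SI.

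Cd177 was higher in colon than in SI. Its level was 211, 290 and 373 CPM in WT colon (lowest, median and highest of 6 libraries) and 188, 269 and 370 CPM in mutant colon. In SI it was 6.85, 16.8 and 19.4 CPM in WT and 1.49, 3.27 and 3.95 CPM in 9S/T-A. The colon groups overlapped, every SI library was below every colon library, and the highest mutant SI library was below the lowest WT SI library. The share of all genes with such separation is not given here. For each of the 6 genes, groups without overlap are therefore a description. As means, Cd177 was 14.3 ± 5.29 CPM in WT SI and 2.93 ± 1.01 CPM in mutant SI, a fitted log2 fold change of -2.29 ± 0.294 (SE), or 4.88-fold lower in the mutant.

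Ceacam10 had the same order of groups with a wider span. Its level was 68.9, 75.9 and 85.9 CPM in WT colon and 58.3, 73.2 and 95.5 CPM in mutant colon, again with overlap. It was 2.74, 7.18 and 18.9 CPM in WT SI, and 0.236, 0.487 and 0.765 CPM in mutant SI, where the libraries held 9 to 36 counts. The lowest WT SI library was 3.58 times the highest mutant SI library, and the fitted log2 fold change in SI was -4.07 ± 0.44, or 16.8-fold lower in the mutant. The WT SI libraries spread more than any other group of the 6 genes (SD 70.0% of the mean), with the library numbered 7 at the top. Without the libraries numbered 7 the difference was -3.64 ± 0.358.

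Ceacam1 had the highest level per kb of exon of the 6 genes in every group. Its level was 245, 293 and 505 CPM in WT SI and 161, 202 and 228 CPM in mutant SI, and the ranges did not overlap, although the lowest WT library was only 1.07 times the highest mutant one. It was 1310, 1510 and 1620 CPM in WT colon and 1230, 1610 and 1750 CPM in mutant colon, where the ranges overlapped. The fitted log2 fold change in SI was -0.71 ± 0.159, and -0.49 ± 0.108 without the libraries numbered 7, of which the WT one was the highest and the mutant one the lowest of its group.

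Ceacam2 followed Ceacam1 throughout. It was 95.1, 118 and 199 CPM in WT SI, 61.3, 80.4 and 88.3 CPM in mutant SI, 514, 565 and 599 CPM in WT colon and 450, 596 and 668 CPM in mutant colon. The SI ranges did not overlap between genotypes and the colon ranges did, with a fitted log2 fold change in SI of -0.73 ± 0.158, and -0.51 ± 0.106 without the libraries numbered 7, of which the WT one was the highest and the mutant one the lowest of its group. Counts of Ceacam2 were between 36.6% and 41.2% of those of Ceacam1 in all 24 libraries. With windows shared as above, the 2 genes are not independent measurements.

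Ceacam18 ran the other way. It was 17.6, 18.3 and 21.2 CPM in WT SI and 18.5, 22.7 and 30.5 CPM in mutant SI, against 2.48, 3.97 and 5.05 CPM in WT colon and 2.21, 3.06 and 3.8 CPM in mutant colon. Both SI groups lay above both colon groups, and the genotypes overlapped within each tissue. The fitted log2 fold change between genotypes in SI was 0.29 ± 0.106.

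Ceacam20 showed the least difference between groups. It was 5.52, 8.50 and 13.6 CPM in WT SI, 5.90, 9.20 and 17 CPM in mutant SI, 5.66, 6.51 and 8.48 CPM in WT colon and 7.5, 7.99 and 10.9 CPM in mutant colon. All 4 ranges overlapped, and the fitted log2 fold change between genotypes in SI was 0.25 ± 0.246.

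**Figure D1:**
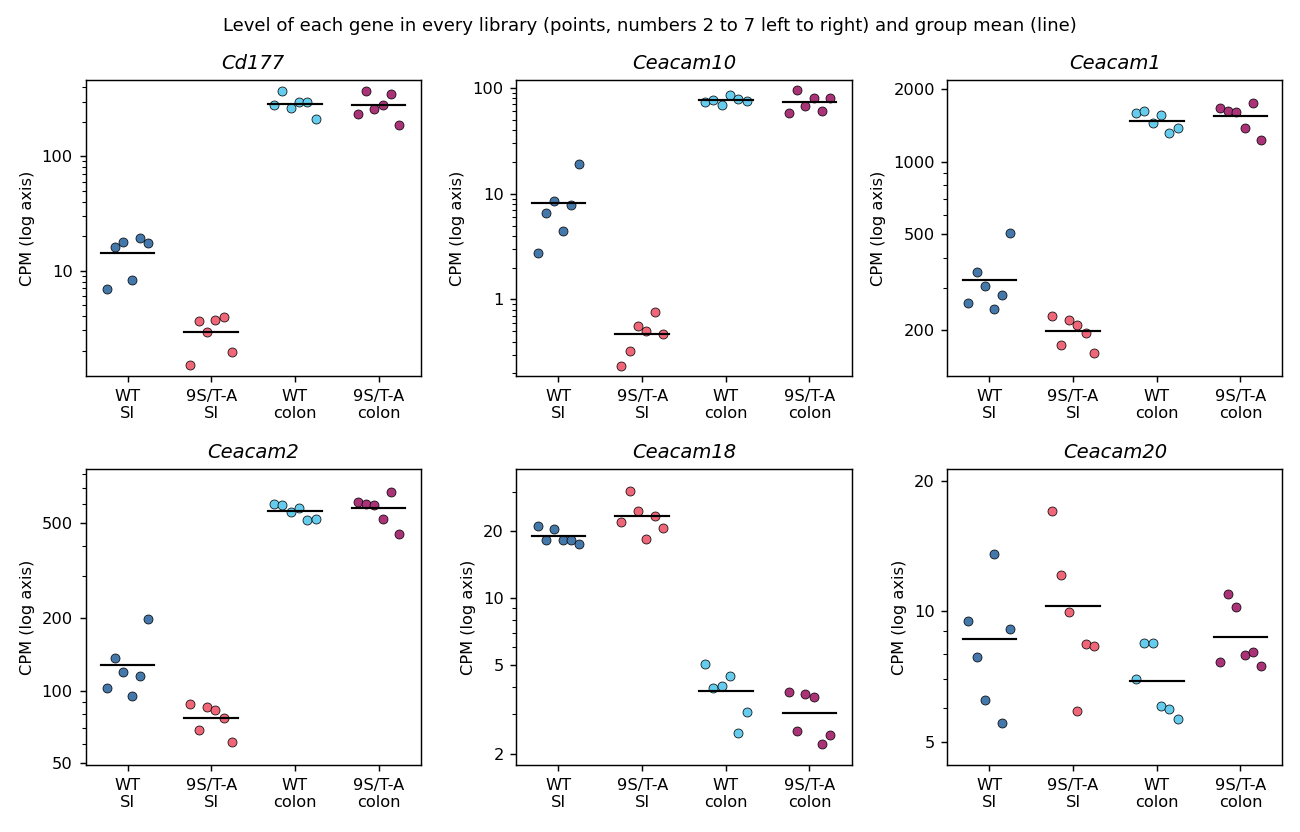
CPM (log axis, a separate scale for each gene) of the 6 genes in each of 24 libraries by group, with points in the order of library number and a line at the group mean. Cd177, Ceacam10, Ceacam1 and Ceacam2 show no overlap between WT SI and mutant SI and lie higher in colon, Ceacam18 lies higher in SI, and the groups of Ceacam20 overlap. The share of all genes without overlap is not given here.

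Levels of different genes were compared per kb of exon. In WT colon the order was Ceacam1 (397 ± 32.8 CPM per kb, mean ± SD, n = 6), Ceacam2 (142 ± 9.48), Cd177 (106 ± 19.4), Ceacam10 (73.4 ± 5.51), Ceacam20 (2.39 ± 0.437) and Ceacam18 (1.99 ± 0.48), of which the last 2 did not differ beyond their spread. In mutant colon the order was the same. In WT SI, Ceacam1 (86.6 ± 25.7 CPM per kb) and Ceacam2 (32.6 ± 9.53) led, and Ceacam18 (9.85 ± 0.759), Ceacam10 (7.82 ± 5.47) and Cd177 (5.26 ± 1.95) followed, with Ceacam10 within its spread of both neighbours. In mutant SI, Ceacam18 (12.1 ± 2.14 CPM per kb) and Ceacam20 (3.55 ± 1.34) stood above Cd177 (1.08 ± 0.373) and Ceacam10 (0.456 ± 0.178).

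**Figure D2:**
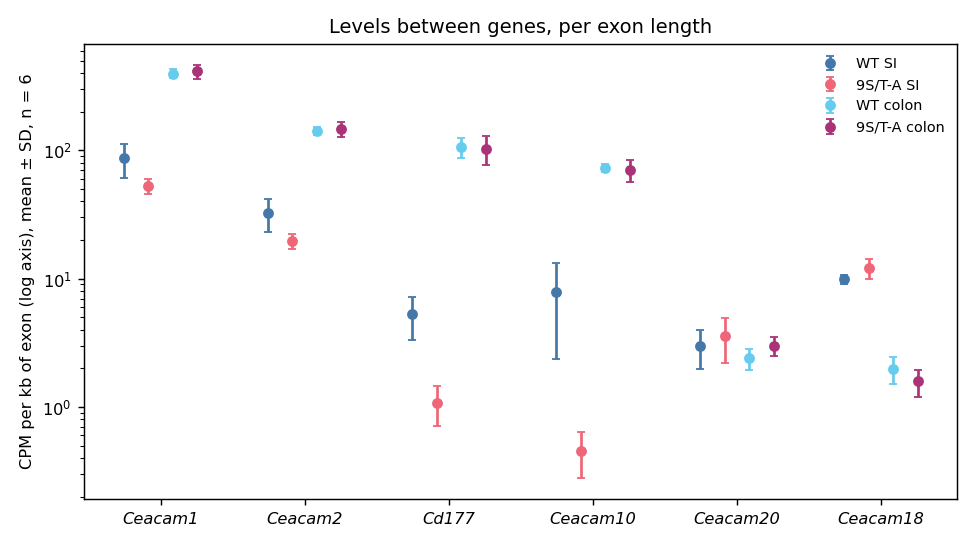
Mean level per kb of exon (CPM per kb, log axis; bars, SD; n = 6) of each gene in the 4 groups. Ceacam10 spans the widest range, from 0.456 CPM per kb in mutant SI to 73.4 in WT colon.

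Across all genes, 1.94% of the 16236 tested in SI differed between genotypes (315, edgeR quasi-likelihood test, Benjamini-Hochberg adjusted p under 0.05), 0.905% in the direction of a lower level in the mutant. Of the 6 genes, 4 were among the latter (Ceacam1, Ceacam2, Ceacam10 and Cd177). Since the genes were chosen by this difference, nothing is read from that count. It fell to 2 (Ceacam10 and Cd177) when any single one of 7 SI libraries was left out, namely WT 3 and 4 and 9S/T-A 3, 4, 5, 6 and 7. Without all libraries numbered 7 it was 4.

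The same genotype comparison in colon used other libraries. Its values are still tied to the choice of the genes, since the SI difference and its difference between tissues together give the colon difference. The colon values of the 6 genes are therefore a description, and nothing is read from their p-values or the count called. Of the 16997 genes tested there, 0.318% were called, and 0 of the 6 genes. The fitted log2 fold changes (9S/T-A minus WT) were -0.02 for Cd177 (95% interval -0.32 to 0.29, edgeR adjusted p = 1) and -0.04 for Ceacam10 (-0.26 to 0.18, edgeR adjusted p = 1). They were 0.07 for Ceacam1 (-0.11 to 0.25, edgeR adjusted p = 0.983) and 0.06 for Ceacam2 (-0.12 to 0.23, edgeR adjusted p = 0.995). Ceacam18 was -0.32 (-0.67 to 0.04, edgeR adjusted p = 0.703), lower in the mutant library in 6 of 6 comparisons of the same number, and Ceacam20 was 0.35 (0.10 to 0.61, edgeR adjusted p = 0.406), higher in 6 of 6. At an unadjusted p under 0.05 edgeR gave 1 of the 6, Ceacam20, and 1497 of the 16997 genes tested. After adjustment DESeq2 called 0 of the 6 and 1.2% of all genes. With the library number as a block, where the pairing is not known, 385 genes were called in place of 54, and Ceacam20 was among them (0.35, edgeR adjusted p = 0.0311).

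Whether the genotype difference itself differed between tissues was fitted over all 24 libraries as an interaction, in which 0.412% of 17953 genes were called. The interaction (genotype difference in colon minus that in SI) was 4.0 ± 0.445 on the log2 scale for Ceacam10 and 2.24 ± 0.342 for Cd177. It was 0.76 ± 0.197 for Ceacam1, 0.77 ± 0.193 for Ceacam2, -0.63 ± 0.22 for Ceacam18 and 0.08 ± 0.298 for Ceacam20. Library numbers were taken to pair the SI and colon libraries of a genotype, although this pairing is not established. With genotype and number as a block the interaction was 3.8 for Ceacam10, 2.20 for Cd177 and 0.72 for both Ceacam1 and Ceacam2. Of the 6 genes, 2 passed the threshold, and 4 with the block or by DESeq2. Since the genes were chosen by this difference, nothing is read from these counts.

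Tissue was compared within each genotype. In WT, 63.6% of 16979 genes were called, and so were 5 of the 6 genes. Colon was the higher in 4 of them, against 33.1% of all genes, and the lower in 1, against 30.4%. These shares of all genes depend on the scaling. Under library totals alone 72.1% of all genes were called higher and 11.2% lower in colon, so that 4 of 6 lies near the share of all genes, while the same number of the 6 genes, 5, was called. The median log2 difference was 2.13 for the 6 genes and 0.03 for all genes tested. Colon exceeded SI by 4.30 ± 0.254 for Cd177 (edgeR adjusted p = 8.47e-10), 3.21 ± 0.332 for Ceacam10 (edgeR adjusted p = 5.67e-07), 2.16 ± 0.162 for Ceacam1 (edgeR adjusted p = 1.37e-08) and 2.09 ± 0.155 for Ceacam2 (edgeR adjusted p = 1.22e-08), each higher in 6 of 6 same-numbered pairs. Ceacam18 was lower in colon, at -2.34 ± 0.145 (edgeR adjusted p = 1.39e-09, 6 of 6 pairs). Ceacam20 was -0.35 ± 0.19 (edgeR adjusted p = 0.119), lower in colon in 3 of 6 pairs.

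In 9S/T-A mice 60.9% of 16938 genes were called for tissue, and again 5 of the 6 genes, 4 of them higher in colon, where 32.9% of all genes were, or 74.1% under library totals. The differences (colon minus SI) were 7.22 ± 0.221 for Ceacam10 (edgeR adjusted p = 7.17e-13) and 6.55 ± 0.27 for Cd177 (edgeR adjusted p = 2.02e-11), 149-fold and 93.8-fold. They were 2.93 ± 0.128 for Ceacam1 (edgeR adjusted p = 3.45e-11), 2.86 ± 0.124 for Ceacam2 (edgeR adjusted p = 3.44e-11), -2.96 ± 0.164 for Ceacam18 (edgeR adjusted p = 6.2e-10) and -0.27 ± 0.204 for Ceacam20 (edgeR adjusted p = 0.278). Under scaling by library totals alone the sign for Ceacam20 turned in both genotypes, to 0.36 in WT and 0.51 in 9S/T-A. The tissue difference in WT and the interaction together give that in 9S/T-A, so the 9S/T-A values of the 6 genes are tied to their choice. Those values are a description, and nothing is read from their p-values or the count called. The tissue comparisons use the same libraries as the genotype comparisons and are set beside them, not counted as further evidence.

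**Figure D3:**
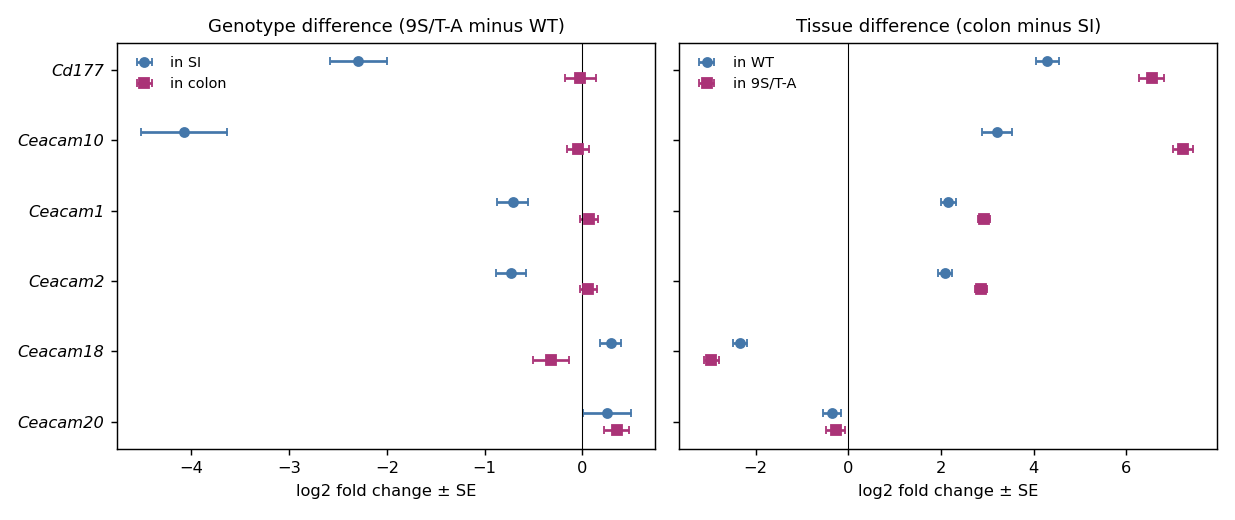
Fitted log2 fold changes (horizontal axis; bars, SE) of the 6 genes for genotype in SI and in colon (left) and for tissue in WT and in 9S/T-A mice (right). The SI values of Cd177 (-2.29) and Ceacam10 (-4.07) stand to the left of 0 while their colon values (-0.02 and -0.04) lie at 0.

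The share that SI held of the colon level places these genes beside others. Mean SI level as a percentage of mean colon level was 4.96% in WT and 1.05% in 9S/T-A for Cd177, 10.6% and 0.648% for Ceacam10, 21.8% and 12.8% for Ceacam1 and 23.0% and 13.5% for Ceacam2. Hoxb13, a homeobox gene of the distal gut, and Best2, a chloride channel of colonic goblet cells, were chosen after their values were seen and stood at 0.203% and 0.196% in WT and at 0.187% and 0.253% in 9S/T-A. With comparison genes chosen in this way, nothing is read from the order of these percentages.

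Library by library, neighbouring genes did not deviate from their group means to the same degree. The levels of a library share its depth and its sex, which goes with the number in every group. The part of sex in these deviations was not tested. As a description over 24 libraries, the Pearson r of group-centred log2(CPM + 1) was 0.99 for Ceacam1 with Ceacam2, which share windows, and 0.61 for Ceacam10 with Cd177. Within groups of 6 the latter was 0.79 in WT SI, 0.61 in mutant SI, 0.36 in WT colon and 0.18 in mutant colon. The libraries numbered 2 were the lowest for both Cd177 and Ceacam10 in WT SI and in mutant SI. Ceacam10 with Ceacam1, whose upstream bases are alike, stood at 0.58 over 24 libraries. By group it was 0.88 in WT SI but -0.07 in mutant SI, 0.18 in WT colon and -0.47 in mutant colon. Cd177 with Ceacam1 stood at 0.45 over 24 libraries, and at 0.58, -0.12, 0.53 and 0.69 in the same order of groups. Without the libraries numbered 7, r over 20 libraries was 0.81 for Ceacam10 with Cd177, 0.23 for Ceacam10 with Ceacam1 and 0.25 for Cd177 with Ceacam1. In the 5 WT SI libraries Ceacam10 with Ceacam1 then stood at 0.61.

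Ratios of counts were also read in each library. Ceacam10 was 1.06% to 3.75% of Ceacam1 in WT SI, 0.103% to 0.392% in mutant SI, 4.66% to 6.02% in WT colon and 3.47% to 6.48% in mutant colon, so the SI groups did not overlap each other or the colon except between the highest WT SI library, numbered 7, and the lowest mutant colon libraries. The highest of the other WT SI libraries was 2.8%. Ceacam10 was 40.0% to 109% of Cd177 in WT SI and 8.92% to 24.2% in mutant SI, also without overlap. The 109% was the WT SI library numbered 7 alone, and without the libraries numbered 7 the ranges were 40.0% to 52.7% and 8.92% to 19.4%. In colon it was 20.8% to 35.3% in WT and 17.3% to 42.4% in 9S/T-A, with highest values of 29.0% and 28.7% without those libraries.

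**Figure D4:**
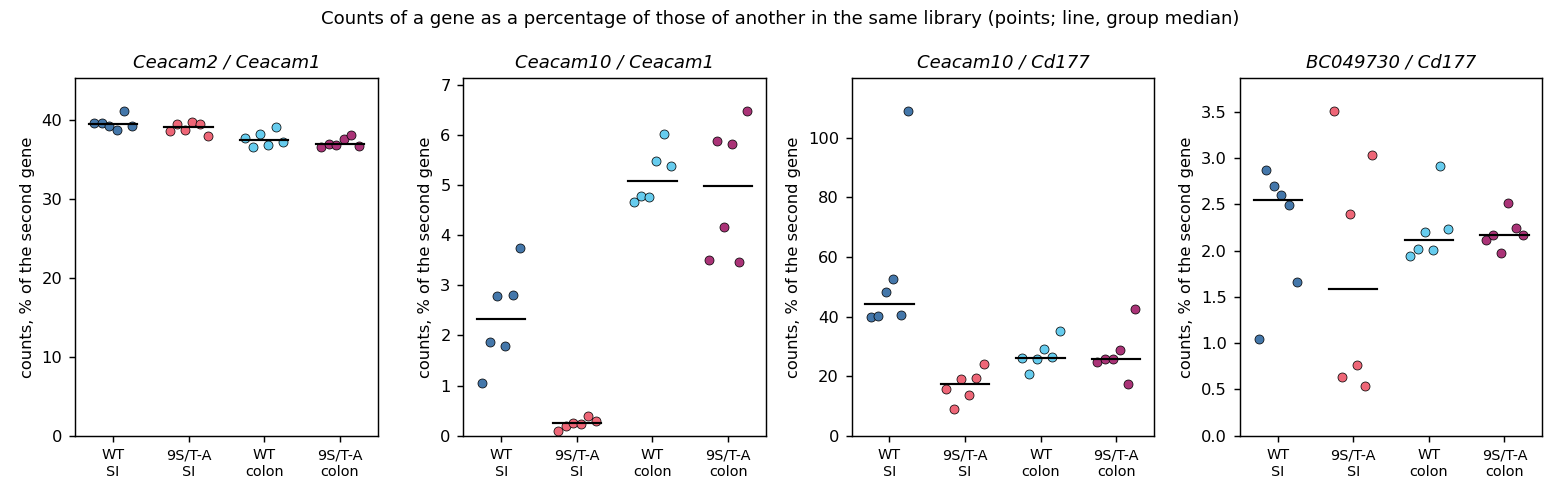
Counts of a gene as a percentage of those of another in each library (points; line, group median; axes start at 0). Ceacam2 stays between 36.6% and 41.2% of Ceacam1 in every library, while Ceacam10 as a percentage of Ceacam1 is lowest in mutant SI, at 0.103% to 0.392%.

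Among the 49 other genes within 500 kb of the Cd177 and Ceacam10 pair, 0 of 27 tested were called for genotype in SI by edgeR, and 0 of 28 in colon. At an unadjusted p under 0.05 edgeR gave 5 and 3, where all genes gave 2556 of 16236 in SI and 1497 of 16997 in colon. After adjustment DESeq2 called 4 and 0, against 4.17% and 1.2% of all genes. The 4 were BC049730 (-2.97 on the log2 scale by DESeq2), the potassium channel gene Kcnn4 (-0.47), Zfp428 (-0.59) and Gm9844 (0.27), of which the last 3 were named after their values were seen. In WT 16 of 27 were called for tissue, 11 higher and 5 lower in colon, against the 63.6% of all genes, and under library totals 24 were higher and 1 lower. The 11 include BC049730, which passed the filter through colon alone. Beside BC049730, described next, the largest called difference among them was that of Ethe1, a mitochondrial sulfur dioxygenase, at 2.60 ± 0.118 (edgeR adjusted p = 3.85e-11). One of these genes was BC049730 (ENSMUSG00000045587, chr7:24709259-24714533), which ends 29.5 kb before Cd177.

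BC049730 had 3 to 22 counts in WT SI libraries, 1 to 3 in mutant SI, 324 to 532 in WT colon and 297 to 584 in mutant colon. It therefore fell under the filter for the SI comparison by edgeR. DESeq2, run without that filter, called it lower in mutant SI (DESeq2 adjusted p = 0.000302). In colon it differed by -0.02 ± 0.185 (edgeR adjusted p = 1). It entered the tissue and interaction fits through its colon counts alone, so their values, 4.21 ± 0.293 (log2, colon minus SI in WT) and 2.86 ± 0.515 (interaction), are a description, and the latter rests on the 1 to 3 counts in mutant SI. Its counts were 0.538% to 3.51% of those of Cd177 over the 24 libraries, with group medians of 2.54%, 1.58%, 2.11% and 2.17% (WT SI, mutant SI, WT colon, mutant colon), and 7.63% of its 50-base windows occurred in transcripts of Cd177. The part of shared reads in its counts was not tested.

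Of the 10 other genes with a Ceacam symbol, 7 had under 10 counts in every library, and 3 of these were at 0 throughout. The remaining 3 (Ceacam9, Ceacam12 and Ceacam13) passed the filter on low counts through colon alone, so their tissue difference is given by levels without a test. Ceacam12 was 0.153 ± 0.0844 CPM in WT SI, 0.0954 ± 0.0598 in mutant SI, 7.74 ± 1.04 in WT colon and 11.6 ± 3.71 in mutant colon. Its genotype difference in colon was 0.61 ± 0.175 (edgeR adjusted p = 0.235). Ceacam13 had 0 counts in every SI library and at most 30 in colon.

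Of the 13 Psg genes, the pregnancy-specific glycoproteins of the same family, 3 were tested in the tissue comparisons. In WT 2 were called higher in colon, against 33.1% of all genes by TMM, and all 3 under library totals, against 72.1%. Since Psg17, among the 2, entered through colon alone, nothing is read from these counts. Psg16 was 14.2 ± 3.02 CPM in WT SI and 19.4 ± 2.18 CPM in WT colon (0.41 ± 0.125, edgeR adjusted p = 0.00893), and Psg17 was 0.188 ± 0.0649 and 0.541 ± 0.168 CPM, having passed the filter through colon alone. Ly6/uPAR genes of chromosome 7, relatives of Cd177, were sought by symbol, and the 6 found need not be all. BC049730 and Gm4763, which share windows with Cd177, were not in this list. Of the 6 only Plaur, the urokinase receptor, was tested. Plaur was lower in colon (-0.77 ± 0.188 in WT, edgeR adjusted p = 0.00213), but under library totals it stood at -0.04 and was not called. Of the 3 tested genes of these 3 lists in SI, and the 7 in colon, edgeR and DESeq2 called 0 for genotype. At an unadjusted p under 0.05 edgeR gave 1, Ceacam12 in colon, where 1497 of 16997 genes passed.

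Of 9 genes for partners of CEACAM proteins, 8 were tested and 0 were called for genotype in SI or in colon by edgeR. At an unadjusted p under 0.05 edgeR gave 1 in SI and 2 in colon, where all genes gave 2556 of 16236 and 1497 of 16997. DESeq2 called 1 in SI, Flna (-0.39, named after its value was seen), and 0 in colon, against 4.17% and 1.2% of all genes. For tissue in WT, 1 was higher and 5 were lower in colon, against 63.6% of all genes called. Under library totals 6 were higher and 1, Ptprh, was lower, so the direction of this list depends on the scaling. Ptprh, whose product acts on CEACAM20, was 88.8 ± 17.3 CPM in WT SI and 10.5 ± 1.27 CPM in WT colon (-3.12 ± 0.131, edgeR adjusted p = 1.55e-11), whereas Ceacam20 itself differed by -0.35. Ptpn6, the gene for SHP-1, was lower in colon by 0.44 on the log2 scale (-0.44 ± 0.097, edgeR adjusted p = 0.000875), and under scaling by library totals it was 0.26 higher.

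Of the 4 genes for partners of CD177, Prtn3, the gene for proteinase 3, had at most 4 counts in any library. For genotype edgeR called 0 of 3 tested in SI and 0 of 2 in colon, with 1 and 0 at an unadjusted p under 0.05. DESeq2 called 1 in SI, Itgam (-0.60, named after its value was seen). Of all genes in SI, 2556 of 16236 were under this unadjusted p by edgeR, and DESeq2 called 4.17%. Itgb2, an integrin subunit of leukocytes, was 1.43 ± 0.424 CPM in WT SI and 0.0677 ± 0.0679 CPM in WT colon, and it passed the filter through SI alone, so no test of tissue is given.

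Since Cd177 is a neutrophil marker elsewhere, markers of other cells were read in the same libraries. The 10 neutrophil markers summed to 0.475 to 2.01 CPM in WT SI, 0.604 to 1.77 in mutant SI, 1.73 to 3.15 in WT colon and 1.83 to 4.22 in mutant colon. S100a8 and S100a9, the most abundant transcripts of neutrophils, were at 0 in mutant SI and in both colon groups and at most 6 counts in WT SI. Ly6g had 67 to 237 counts in colon libraries and at most 4 in SI. Cxcr2 was present in every library, with 6 to 18 counts in WT SI, 14 to 31 in mutant SI, 9 to 41 in WT colon and 12 to 55 in mutant colon, and differed by 1.12 between genotypes in SI (edgeR adjusted p = 0.103). Ltf was also present in every library, with 2 to 61 counts. The other 5 had at most 5 counts in any library. The part of these cells in the level of Cd177 was not tested. The 8 other leukocyte markers summed to 5.57 to 16.4 CPM in SI and 0.505 to 2.56 CPM in colon.

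Other markers moved with the genotype difference in SI. Of the 6 Paneth markers, 4 were called lower in the mutant by edgeR (Mmp7, Itln1, Ang4 and Pla2g2a), against 0.905% of all genes, and their summed level was 47200 to 74000 CPM in WT SI and 36800 to 58000 CPM in mutant SI. Of the 4 tuft markers, 2 were called lower (Pou2f3 and Gfi1b), with sums of 33.6 to 71.1 and 10.7 to 59.1 CPM. The 8 endothelial and stromal markers summed to 8.07 to 20.2 CPM in WT SI and 5.26 to 9.81 CPM in mutant SI, and 1 of 3 tested was called lower. This was Vim, which made up most of the sum, at a mean of 10.7 CPM in WT SI and 4.37 CPM in mutant SI. The others tested, Pecam1 and Acta2, each had a log2 fold change of 0.04. Of the 12 absorptive, 8 goblet and 4 enteroendocrine markers, 0 were called in SI by edgeR, with median log2 fold changes of 0.39, 0.27 and -0.58. At an unadjusted p under 0.05 edgeR gave 3, 2 and 2, where all genes gave 2556 of 16236. DESeq2 called 2, 0 and 1, against 4.17% of all genes. The part of these cells in the levels of the 6 genes was not tested, and in bulk RNA fewer cells of a type and less RNA per cell cannot be told apart.

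The genes whose pattern over the 4 groups was most like that of Cd177 were sought among 17953 genes by the root mean square difference of centred mean log2(CPM + 1). Saa1, a serum amyloid A gene, was the nearest (0.17), then Gsdmc2, a gasdermin C gene on chromosome 15 (0.36), and then Ceacam10 (0.43). Saa1 was 6.70 ± 3.98 CPM in WT SI, 1.19 ± 0.671 in mutant SI, 130 ± 57.0 in WT colon and 124 ± 62.0 in mutant colon. For Ceacam10 the nearest were Saa1 (0.34), Cd177 (0.43) and Ildr1 on chromosome 16 (0.62), a gene of tricellular junctions, at 5.83 ± 1.01, 3.24 ± 0.951, 112 ± 11.4 and 109 ± 15 CPM in the same order of groups. The 1 added to CPM shrinks differences at low levels, as in mutant SI, where Ceacam10 averaged 0.476 CPM. The distances and their order depend on this addition. Saa1 and Gsdmc2 have close paralogs with which reads can be shared, so their counts are uncertain.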

How the data were processed

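The authors aligned 50-base single-end stranded reads to GRCm38 (GRCm38.p3) with TopHat2 2.1.1 and deposited raw counts per Ensembl gene, made by strand over exons from primary alignments (featureCounts, Subread 1.5.2) and not normalized. GENCODE M21 gave symbols to 97.96% of 45513 genes. Each comparison was fitted with edgeR 4.0.16 under R 4.3.3 (genes kept by filterByExpr, TMM factors, two-sided quasi-likelihood test, SE from the F statistic), with p-values adjusted over all tested genes by the Benjamini-Hochberg method. CPM were scaled by TMM over 24 libraries. The fits were tested on simulated data.

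Groups and numbers came from the labels, and 0 of 60 same-group pairs were identical. Deviations of same-numbered libraries correlated between the tissues of a genotype in every pair (0.17 to 0.57 in WT, 0.16 to 0.65 in 9S/T-A), so numbers were taken to pair them. The mean r was 0.294 in WT and 0.372 in 9S/T-A. Between same-numbered colon libraries of WT and 9S/T-A it was 0.414, so these correlations do not establish pairing. The design note counts 6 mice, while the paper's legend to its expression results gives n = 6 for each of WT and 9S/T-A. Whether numbers mark mice is not given in either, so n counts libraries and the spread may be partly technical.

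The 6 genes, lists and tests were chosen with earlier results of these data known. List genes were named if called for genotype or among the 2 largest called tissue differences in WT. Alternatives were DESeq2 1.42.0, other scalings and filters, sex as a covariate, a replicate block, all 24 libraries in 1 fit and each library left out. Leaving out all libraries numbered 7 was chosen after seeing the data. Upstream windows were aligned with Biopython 1.88. Protein identity was not analysed here.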

Additional observations from a re-analysis of the deposited data

Results flagged for a closer look

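The WT SI library numbered 7 stood far from the others of its group for Ceacam10, at 18.9 CPM. Its gap to the nearest library was 10.5 of a range of 16.2 CPM, and of 24 groups of 6 libraries (6 genes in 4 groups) it was the 1 flagged, where chance flags about 1 in 20. The interaction (genotype difference in colon minus that in SI) was 4.0 on the log2 scale for Ceacam10, 2.24 for Cd177 and 2.86 for BC049730. These values are a description, since the first 2 genes were chosen with this difference known and BC049730 passed the filter on low counts through colon alone, with 1 to 3 counts per library in mutant SI.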

How the results depend on the processing

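Of 432 values of the 6 genes with 1 library left out, 405 kept their direction and side of the threshold, as did 252 of 264 under the other alternatives. For genotype, SI calls of the 6 genes ranged from 2 to 4 with 1 library left out and those of all genes from 188 to 550, and colon calls of all genes from 30.0 to 72. In the interaction, 2 to 4 of the 6 and 50 to 112 of all genes were called, with 4 and 112 reached without the WT and mutant SI libraries numbered 2. DESeq2 called 780 genes in SI, 247 in colon and 258 in the interaction (4 of the 6), and the fit of all 24 libraries 520 in SI and 103 in colon. Colon calls were 90.0 without the filter and 89 with sex. Without the libraries numbered 7 the interaction had 43 calls.

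The replicate block gave 477 calls in SI (2 of the 6), 385 in colon (1 of the 6, Ceacam20 at 0.35) and 342 in the interaction (4 of the 6). It changed no call of the 6 for tissue. For genotype the numbers are shared without known pairing: deviations correlated at -0.098 to 0.70 in SI and 0.021 to 0.86 in colon, where 2 and 4 of 6 libraries correlated best with their own number. Under the block Ptprh, 0.34 in colon, was also called.

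Scaling by library totals called 4 of the 6 in the interaction and shifted the median of all genes by -0.11 (log2) for genotype in SI, 0.74 for tissue in WT and 0.85 in 9S/T-A. It turned the tissue difference of Ceacam20 (0.36 and 0.51) and Ptpn6 (0.26 and 0.20), in WT and 9S/T-A. Other turns of sign were of values near 0: in colon, with 1 library left out, Ceacam10 ranged from -0.12 to 0.03, Cd177 from -0.11 to 0.07 and BC049730 from -0.11 to 0.09, the latter 2 at 0.00 without the libraries numbered 7, and the interaction of Ceacam20 ranged from -0.09 to 0.28. The cause of these changes was not tested. Depth limits Ceacam10 and BC049730 in mutant SI, at 9 to 36 and 1 to 3 counts.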
